A study of Mus musculus with 6 samples.

Results

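The genes described here are 10 targets and modulators of canonical Wnt signaling, namely Axin2, Lef1, Tcf7, Sp5, Sp8, Notum, Dkk1, Nkd1, Lgr5 and Rspo3, measured by RNA-seq in NMPs (neuromesodermal progenitors) treated for 2 h with RA (retinoic acid). They were taken by gene name from tables of 20631 genes, and the values of the transcripts of a gene were added together, so that 13 of 30352 RefSeq transcripts are covered. Each of the 10 genes was found in all 6 samples and passed the filter on low counts, which left 15143 genes for testing. NMPs are caudal cells of the embryo with both neural and mesodermal potential. Here they were derived from mouse ESCs grown with bFGF for 2 days and with bFGF plus the WNT agonist CHIR99021 for 1 further day. The medium was then replaced with N2B27 that held DMSO vehicle, 25 nM RA or 1 µM RA but neither bFGF nor CHIR99021, and RNA was collected after 2 h, with 2 samples for each of the 3 conditions. Thus the agonist was withdrawn from every sample, the DMSO samples included, and a culture that kept it was not analysed here. The supplement in this medium lacked retinoids. The strain is given as 129 R1 in the sample labels and as C57BL/6 in the methods of the study, and the ESCs had been kept on fibroblast feeders. Duplicates, described in the methods as technical replicates, came from separate dishes, so p-values measure the spread between dishes within a single experiment.

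In canonical Wnt signaling, a Wnt ligand binds a Frizzled receptor together with LRP5 or LRP6, the destruction complex stops degrading beta-catenin, and beta-catenin enters the nucleus to act with TCF and LEF factors on target genes. CHIR99021 acts inside the cell by inhibiting GSK3, a kinase of the destruction complex. Several targets feed back on the pathway as inhibitors, and in the tailbud Wnt signaling is known to maintain the progenitor pool and to drive formation of presomitic mesoderm.

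After 2 h at 1 µM RA, 6 of the 10 genes had fallen (Axin2, Dkk1, Lef1, Sp5, Sp8 and Rspo3), by 16.7% to 37.3%, and none had risen. With 25 nM RA, 3 of the 10 had fallen (Lef1, Sp5 and Rspo3), by 17.6% to 28.4%, and none had risen. Calls are those with an adjusted p under 0.1 in edgeR (likelihood ratio test, Benjamini-Hochberg adjustment over the 15143 genes). Of all these genes, 19.7% were called at 1 µM RA (11.2% lower and 8.54% higher) and 8.05% at 25 nM RA (3.55% lower and 4.5% higher). None of the 10 was higher at an unadjusted p under 0.05 in either comparison, nor called higher by edgeR's quasi-likelihood test or DESeq2. The median log2 fold change of the 10 genes was -0.39 at 1 µM RA and -0.18 at 25 nM RA, beside 0.0013 and -0.00051 for all genes tested. The 2 DMSO samples are the reference of both doses, so the changes at the 2 doses are not independent of each other. RPKM values (reads scaled by transcript length and sequencing depth) were used for levels, and log2 fold changes were fitted to the estimated counts.

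**Figure D1:**
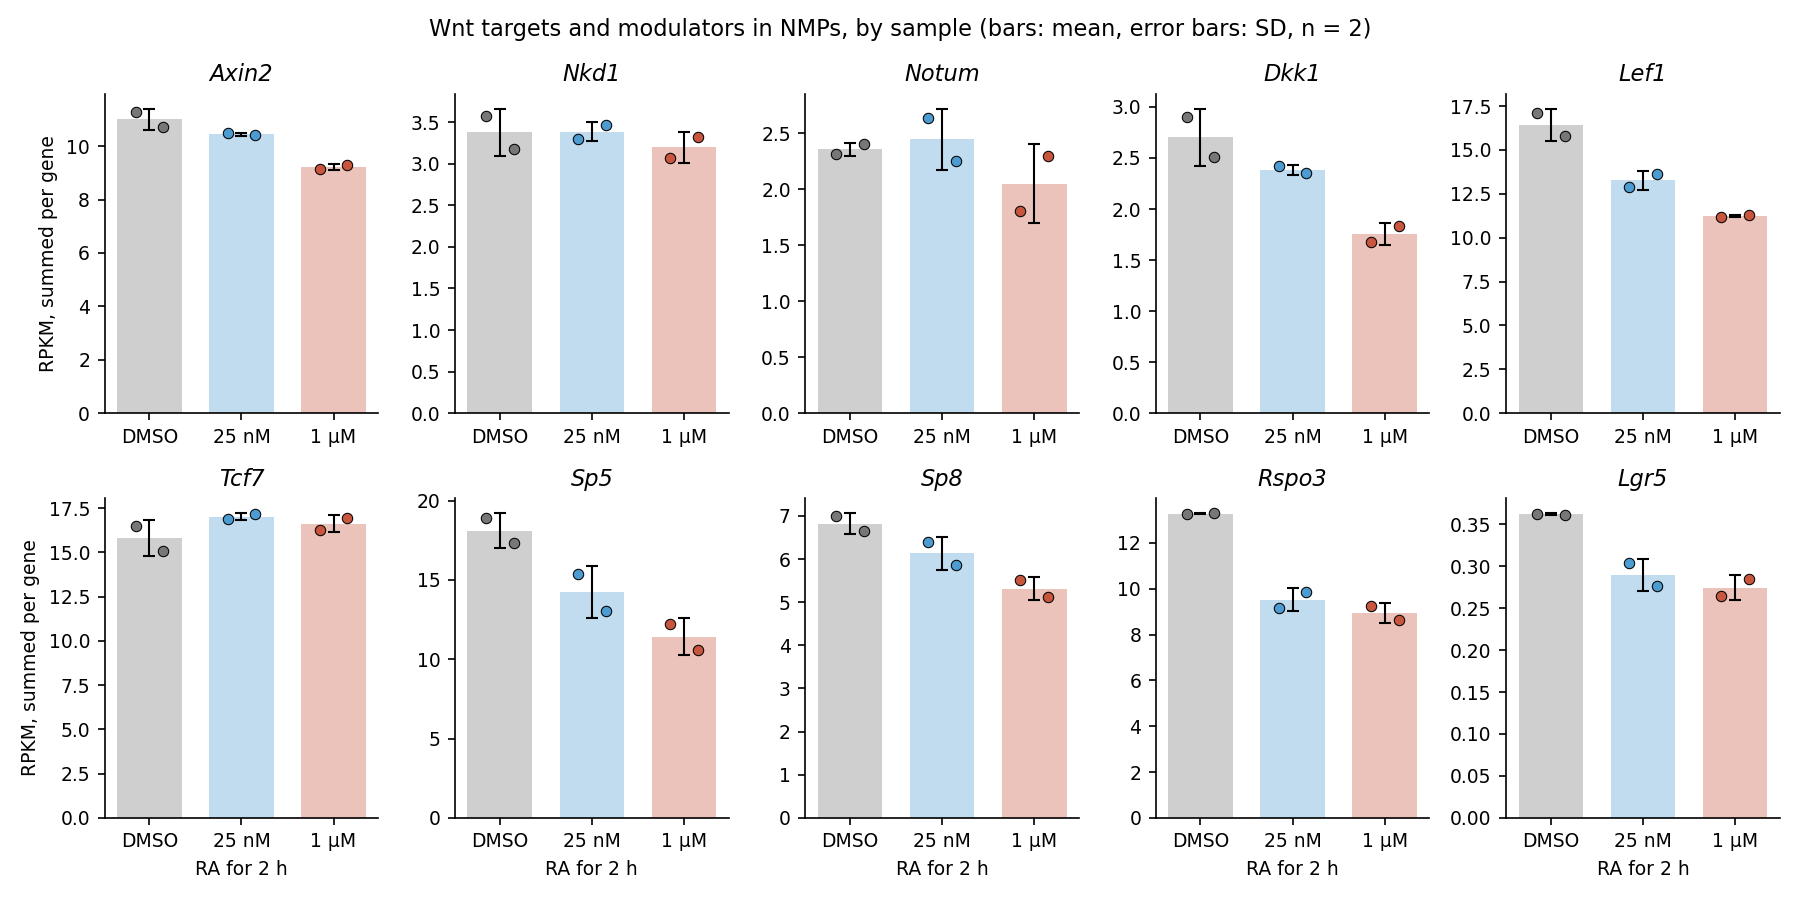
RPKM summed per gene (vertical axes, each from 0) for the 10 genes in NMPs treated for 2 h with DMSO, 25 nM RA or 1 µM RA. Points are samples, bars are means and error bars are SDs of 2 samples. Rspo3 lay at 13.3 in both DMSO samples and at or below 9.87 in all 4 samples with RA, whereas Tcf7 lay between 15.1 and 17.1 throughout.

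The samples held between 31753556 and 42029348 estimated counts, TMM normalization factors lay between 0.98929 and 1.0078, and the common biological coefficient of variation was 0.0351. Of genes known to respond to RA, Rarb, Cyp26a1, Dhrs3 and Stra8 rose at both doses, from a summed RPKM of 52.9 to 53.4 in DMSO to 197 to 198 at 25 nM and 300.4 to 312 at 1 µM RA. Most of this sum is Cyp26a1, at a mean RPKM of 52.4 in DMSO, 178 at 25 nM and 278 at 1 µM RA. Stra8 rose from 0.0162 to no more than 1.24. The NMP label was checked against T, Sox2, Nkx1-2, Cdx2, Fgf8 and Wnt3a, whose summed RPKM was 484 to 496 in DMSO, 529 to 542 at 25 nM and 518 to 536 at 1 µM RA. None of the 6 markers was at 0. Most of the sum is T, at a mean RPKM of 375 in DMSO and 370 at 1 µM RA (log2 fold change -0.03). Of the 6, 4 rose at 25 nM RA and 3 rose at 1 µM RA, and Fgf8 fell at both doses. Sox2, which is also a neural factor, rose from an RPKM of 5.20 in DMSO to 15.4 and 16.3 at the 2 doses.

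Binding sites of TCF and LEF factors are commonly written as CTTTGAT or CTTTGAA, and the promoters of the genes were searched for these letters on both strands. RefSeq promoter windows (GRCm38.p6, 250 bases before to 50 bases after a start) were matched by symbol to 7 of the 10 genes in 13 windows. Notum, Lgr5 and Rspo3 had no window. A match was found in 3 of the 13 windows, 1 each of Sp5, Dkk1 and Sp8, and 8.65% of all 32851 windows hold either motif. These 3 genes were lower at 1 µM RA, as were 5 of the 7 genes searched. The match of Sp8 lies at a downstream start, and the window at the start of the Sp8 transcript counted here holds neither motif. The stretches around the matches are shown to place the motif in its context, 5′ to 3′ on the strand of the gene, with the match in capitals. That of Sp5 is chr2:70474773-70474862 (plus strand) with CTTTGAT 104 bases before the start, that of Dkk1 is chr19:30549557-30549646 (minus strand) with CTTTGAA 117 bases before the start, and that of Sp8 is chr12:118847172-118847198 (plus strand) with CTTTGAA on the reverse strand 51 bases before a downstream start.
Sp5: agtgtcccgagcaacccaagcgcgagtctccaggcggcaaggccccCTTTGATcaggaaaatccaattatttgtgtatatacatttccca
Dkk1: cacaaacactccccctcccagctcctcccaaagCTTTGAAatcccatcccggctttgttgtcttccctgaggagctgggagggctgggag
Sp8: tccgcggcacTTCAAAGccggagaggg
The windows of Axin2, Lef1, Tcf7 and Nkd1 hold neither motif. The Nkd1 window lies at the start of the less abundant of its transcripts. The start of the more abundant, at chr8:88521344, had no window and was not searched. AGGTCA, a common form of the nuclear receptor hexamer that RA receptors bind, was found on the reverse strand 13 bases before a start of Tcf7 and 120 bases before the downstream start of Sp8, and 16.3% of all windows hold it. A pair of such hexamers in the same direction with 5 bases between them, the spacing known best for RA receptors, was in no window of the 7 genes and in 0.0974% of all windows. Pairs with a shorter spacing, which the study also reports near RA target genes, were not searched, nor was sequence outside the windows. A match to such letters is a description of the sequence and does not show that a factor binds there.

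Of the inhibitors that act on the pathway itself, Axin2 and Dkk1 fell at 1 µM RA. Positions given with each gene span its transcripts in the deposited tables, on mm10. Axin2 (chr11:108920349-108950781) encodes a scaffold of the destruction complex and is widely used as a readout of canonical Wnt signaling. Its RPKM was 11.3 and 10.7 in DMSO, 10.5 and 10.4 at 25 nM, and 9.14 and 9.29 at 1 µM RA. All 4 samples with RA were below both DMSO samples, and the samples at 1 µM RA were lowest. The fitted log2 fold change was -0.26 ± 0.054 (SE; adjusted p = 2.4e-05) at 1 µM RA, a fall of 16.7%. At 25 nM RA the value was -0.08, with a 95% interval from -0.18 to 0.03 and an adjusted p of 0.55 by the same test.

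Dkk1 (chr19:30545885-30549496) encodes a secreted antagonist that binds LRP5 and LRP6. Its RPKM was 2.90 and 2.51 in DMSO, 2.42 and 2.35 at 25 nM, and 1.68 and 1.83 at 1 µM RA. The 3 conditions did not overlap, although the lower DMSO sample came close to those at 25 nM RA. On the log2 scale, its fold change was -0.64 ± 0.11 (SE; adjusted p = 6.3e-07) at 1 µM RA, a fall of 35.7%, and -0.19 (95% interval -0.40 to 0.02, adjusted p = 0.40) at 25 nM RA. The value at 25 nM RA was -0.08 without the first DMSO sample and -0.28 without the second.

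Notum (chr11:120653789-120660837) encodes a secreted enzyme that inactivates Wnt ligands by removing their lipid. Its RPKM was 2.32 and 2.40 in DMSO, 2.64 and 2.25 at 25 nM, and 1.80 and 2.30 at 1 µM RA. The 25 nM samples lay on both sides of the DMSO samples, and 1 of the 2 samples at 1 µM RA was within 0.02 of DMSO. The log2 fold change at 1 µM RA was -0.21 (95% interval -0.46 to 0.04, adjusted p = 0.29), and without the second 1 µM sample it was -0.38 and passed the threshold (adjusted p = 0.071), but without the first it was -0.05 (adjusted p = 0.88). At 25 nM RA it was 0.04 (95% interval -0.20 to 0.28), and -0.06 without the first 25 nM sample.

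Nkd1 (chr8:88521344-88594887) encodes an inhibitor that binds Dishevelled proteins in the cytoplasm. Its RPKM was 3.58 and 3.17 in DMSO, 3.30 and 3.46 at 25 nM, and 3.07 and 3.33 at 1 µM RA. The values of all 3 conditions overlapped. The 95% interval of the log2 fold change was -0.24 to 0.07 at 1 µM RA and -0.15 to 0.15 at 25 nM RA, with adjusted p of 0.53 and 0.999 by the same test. Thus a change of the size of that in Dkk1 at 1 µM RA lies outside the interval of Nkd1.

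Of the nuclear factors that carry beta-catenin to DNA, Lef1 and Tcf7 are among the 10 genes. Lef1 fell at both doses and Tcf7 was not called at either. Their relatives Tcf7l1 and Tcf7l2, from the wider pathway list below, were not called at 25 nM RA. At 1 µM RA both were called lower, with log2 fold changes of -0.68 and -0.47. Lef1 (chr3:131110297-131224357) had an RPKM of 17.1 and 15.8 in DMSO, 12.9 and 13.6 at 25 nM, and 11.2 and 11.3 at 1 µM RA. The conditions were separate, and each step of the dose was lower than the last. Its log2 fold change was -0.28 ± 0.057 (SE; adjusted p = 3.5e-05) at 25 nM RA and -0.58 ± 0.057 (SE; adjusted p = 1.4e-21) at 1 µM RA. The falls were 17.6% and 32.9%. Tcf7 (chr11:52252604-52282571) encodes the related factor TCF1. Its RPKM was 16.5 and 15.1 in DMSO, 16.9 and 17.1 at 25 nM, and 16.3 and 16.9 at 1 µM RA. Both 25 nM samples lay above both DMSO samples, but the 1 µM samples overlapped with DMSO. The log2 fold change was 0.10 (95% interval -0.01 to 0.22, adjusted p = 0.43) at 25 nM and 0.06 (95% interval -0.05 to 0.18, adjusted p = 0.53) at 1 µM RA. Without the first or second DMSO sample the 25 nM value of Tcf7 was 0.17 or 0.05, and the 1 µM value was 0.13 or 0.01. The interval of Tcf7 at 1 µM RA did not reach that of Lef1, which ran from -0.69 to -0.46.

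Sp5 and Sp8, zinc finger transcription factors known as Wnt targets in the tailbud, both fell at 1 µM RA. Sp5 (chr2:70474923-70477726) had an RPKM of 18.9 and 17.3 in DMSO, 15.4 and 13.1 at 25 nM, and 12.2 and 10.6 at 1 µM RA. The conditions did not overlap, although duplicates with RA differed more than those of Lef1. Its fitted log2 fold change was -0.36 ± 0.079 (SE; adjusted p = 2.3e-04) at 25 nM RA and -0.67 ± 0.080 (SE; adjusted p = 3.8e-15) at 1 µM RA. The call at 25 nM RA rests on the second 25 nM sample, since without it the log2 fold change was -0.25 (adjusted p = 0.11). Sp8 (chr12:118846329-118852578) had an RPKM of 6.99 and 6.65 in DMSO, 6.41 and 5.85 at 25 nM, and 5.51 and 5.12 at 1 µM RA. Again the samples of the conditions were separate and in the order of the dose. On the log2 scale, its fold change was -0.37 ± 0.065 (SE; adjusted p = 5.3e-07) at 1 µM RA, a fall of 22.5%. At 25 nM RA it was -0.16 (95% interval -0.29 to -0.04, adjusted p = 0.13), short of the threshold, which it passed when either of the 1 µM samples was left out of the fit (adjusted p = 0.080 without the first and 0.077 without the second).

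In the R-spondin arm, in which secreted R-spondins bind LGR receptors and so protect Wnt receptors at the cell surface, Rspo3 fell at both doses. Rspo3 (chr10:29453107-29535867) encodes such a ligand. Its RPKM was 13.3 in both DMSO samples, 9.16 and 9.87 at 25 nM, and 9.23 and 8.62 at 1 µM RA. The samples with RA were well below DMSO, and those of the 2 doses overlapped with each other. The log2 fold change was -0.48 ± 0.065 (SE; adjusted p = 9.2e-12) at 25 nM RA and -0.58 ± 0.065 (SE; adjusted p = 3.9e-17) at 1 µM RA. The falls were 28.4% and 33.1%, and that at 25 nM RA was the largest in percent among the 10 genes at this dose. Lgr5 (chr10:115450314-115587780) encodes a receptor for R-spondins and had the fewest reads, between 54 and 88 estimated counts per sample. Its RPKM was 0.363 and 0.361 in DMSO, 0.304 and 0.277 at 25 nM, and 0.264 and 0.285 at 1 µM RA. All 4 samples with RA were below both DMSO samples. Its fitted log2 fold change was -0.33 (95% interval -0.69 to 0.03, adjusted p = 0.40) at 25 nM and -0.41 (95% interval -0.77 to -0.04, adjusted p = 0.13) at 1 µM RA. At this depth the interval at 1 µM RA is wide enough to hold the changes of both Axin2 and Rspo3.

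**Figure D2:**
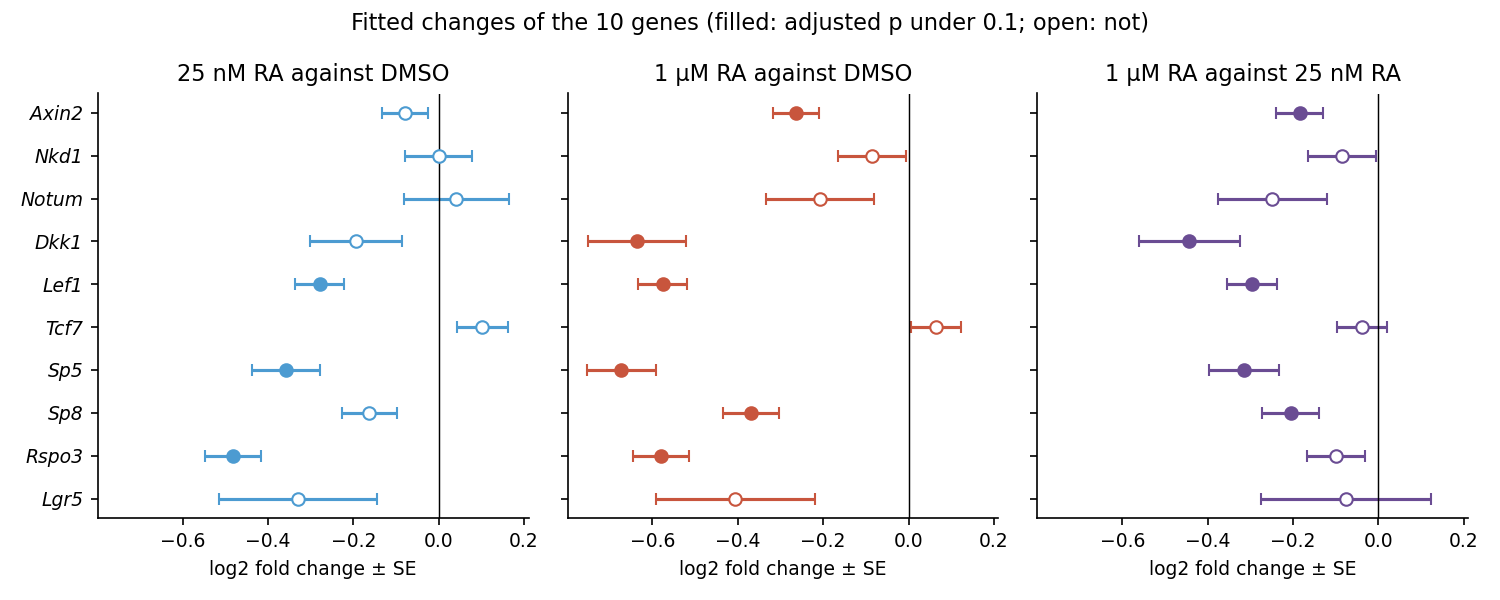
Fitted log2 fold changes (horizontal axes) with their standard errors for the 10 genes, in panels for 25 nM RA against DMSO, 1 µM RA against DMSO and 1 µM RA against 25 nM RA. Filled points passed an adjusted p of 0.1. The lowest value at 1 µM RA against DMSO was -0.67 for Sp5, and 4 genes (Tcf7, Nkd1, Notum and Lgr5) are open in all 3 panels.

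Counted by samples alone, 7 of the 10 genes had both 25 nM samples below both DMSO samples in RPKM, and 8 of the 10 had both 1 µM samples below both. These shares stand beside 20.8% and 25.4% of all genes tested. Tcf7 and Nkd1 were the genes not in the second count.

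RPKM is scaled by transcript length and so allows levels to be compared between genes. In DMSO the order of mean RPKM was Sp5 (18.1 ± 1.09, SD, n = 2), Lef1 (16.4 ± 0.923), Tcf7 (15.8 ± 1.02), Rspo3 (13.3 ± 0.0164), Axin2 (11.0 ± 0.401), Sp8 (6.82 ± 0.239), Nkd1 (3.38 ± 0.286), Dkk1 (2.70 ± 0.279), Notum (2.36 ± 0.0583) and Lgr5 (0.362 ± 0.00101). Among neighbours in this order, only the samples of Lef1 and Tcf7 overlapped. Sp5 was higher than 82.9% of the genes in the tables and Lgr5 was higher than 37.5%. With RA, Tcf7 was first at both doses, at 17.0 ± 0.190 at 25 nM and 16.6 ± 0.472 at 1 µM RA, and its samples did not overlap with those of Sp5, which came next. Sp5 and Lef1 overlapped at both doses, as did Notum and Dkk1, and Axin2 and Rspo3 overlapped at 1 µM RA.

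The doses were also compared directly in the same fit, to ask whether the genes differed between 25 nM and 1 µM RA. Of the 10 genes, 5 were lower at 1 µM RA (Axin2, Lef1, Sp5, Sp8 and Dkk1) and none was higher, beside 2.62% and 0.792% of all genes tested (3.41% in either direction). The same 5 had both 1 µM samples below both 25 nM samples, beside 20.8% of all genes. The log2 fold change of Lef1 between the doses was -0.30 ± 0.059 (SE; adjusted p = 1.3e-04). Sp5 differed by -0.32 ± 0.082 (adjusted p = 0.0094) and Dkk1 by -0.44 ± 0.12 (adjusted p = 0.013). Axin2 differed by -0.18 ± 0.055 (adjusted p = 0.038) and Sp8 by -0.21 ± 0.067 (adjusted p = 0.072). For Rspo3, the value was -0.10 with a 95% interval from -0.23 to 0.03 (adjusted p = 0.57), so that a further fall of the size of that of Lef1 lies outside the interval.

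DESeq2 called Lef1 and Sp5 between the doses, and edgeR's quasi-likelihood test called all but Sp8. Only the call of Lef1 between the doses held when any single sample was left out. Without the first 25 nM sample, Lef1 alone was called of the 10 genes, and adjusted p was 0.46 for Sp5, 0.15 for Dkk1, 0.27 for Axin2 and 0.64 for Sp8. Without the second 25 nM sample, Axin2 (0.28) and Dkk1 (0.13) were lost. Without the first 1 µM sample, Axin2 (0.17) and Dkk1 (0.19) were lost, and without the second, Axin2 (0.11), Sp5 (0.20) and Sp8 (0.37). Sp8 was also lost without the first (0.11) or second (0.12) DMSO sample. Over these fits the log2 fold change of Axin2 lay between -0.19 and -0.18 and that of Dkk1 between -0.50 and -0.39, whereas that of Sp5 lay between -0.43 and -0.20 and that of Sp8 between -0.27 and -0.15. In addition, the median log2 fold change between the doses ran from 0.06 in the tenth of genes with the lowest GC content to -0.07 in that with the highest, and with an offset for GC content the adjusted p of Axin2 (0.25), Sp5 (0.11) and Sp8 (0.26) passed the threshold no longer. At 1 µM RA against DMSO this median likewise ran from 0.05 to -0.07, but at 25 nM RA from -0.0025 to -0.0051. With the offset, the log2 fold changes at 1 µM RA against DMSO were -0.21 for Axin2, -0.58 for Sp5, -0.32 for Sp8 and -0.57 for Lef1. Those of Dkk1 (-0.66) and Rspo3 (-0.61) were slightly larger falls than without it, and all 6 genes were still called. By transcript length, the median at 25 nM RA against DMSO ran from 0.03 in the tenth of shortest genes to -0.04 in that of the longest. It ran from 0.05 to -0.08 at 1 µM RA against DMSO and from 0.02 to -0.04 between the doses. With an offset for length, Sp8 was no longer called between the doses, and the genes called against DMSO stayed the same. The part of GC content and of length in these differences was not tested further.

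Of the 10 genes, 8 have a single transcript in the tables, and the reads of Lef1 and Nkd1 were divided among several by the authors' estimation. For Lef1, NM_001276402 held 71.8% and 68.2% of the estimated counts in the DMSO samples, 82.7% and 72.2% at 25 nM, and 69.0% and 68.9% at 1 µM RA. The first 25 nM sample stood above the other 5. Tested as a transcript, NM_001276402 fell at 1 µM RA (log2 fold change -0.60 ± 0.098, SE, adjusted p = 9.6e-08), but at 25 nM RA its value was -0.14 ± 0.096 (adjusted p = 0.82). Thus the fall of Lef1 at 25 nM RA was called for the sum of its transcripts and not for its most abundant transcript. NM_001276403 held 5.88% of the counts in the first 25 nM sample and 12.3% to 19.2% in the others. NM_010703 held 11.5% to 17.7%. For Nkd1, NM_027280 held 78.5% to 91.9% and NM_001163660 the rest, and the share varied as much between duplicates as between conditions.

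**Figure D3:**
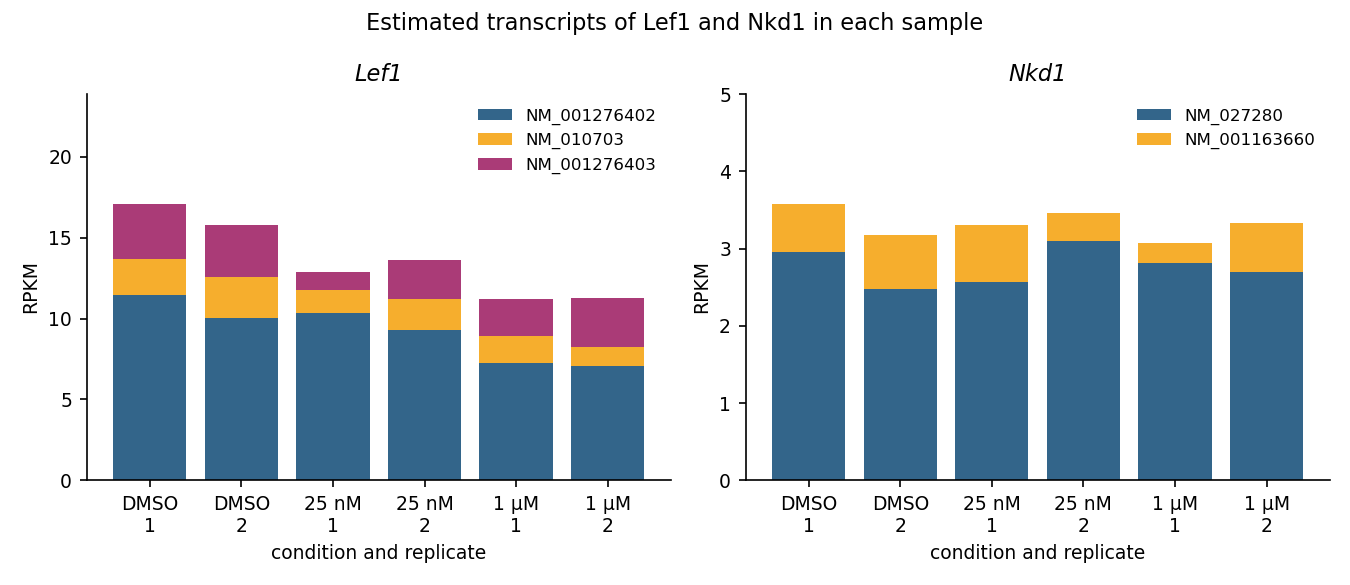
Stacked RPKM (vertical axes) of the estimated transcripts of Lef1 and Nkd1 in each of the 6 samples (horizontal axes, condition and replicate). NM_001276402 made up most of Lef1 in every sample and had a mean of 10.8 in DMSO, 9.83 at 25 nM and 7.15 at 1 µM RA.

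The study drew its gene lists with thresholds on the fold change and level as well as on the adjusted p, namely a log2 fold change above 1 with an RPKM above 1, or below -0.6 with an RPKM above 7. The condition whose RPKM was meant is not given in the sources used here, and the mean of the RA samples was taken for the first and that of the DMSO samples for the second. Applied to the sums per gene, these thresholds took none of the 10 genes at 25 nM and only Sp5 at 1 µM RA, beside 0.033% and 0.139% of all genes on the lower side and 0.442% and 0.568% on the higher side. Dkk1 passed the fold change of -0.6 but not the RPKM of 7. Rspo3 and Lef1, each at -0.58, lay just short of it. With an offset for GC content the log2 fold change of Sp5 was -0.58 and that of Rspo3 was -0.61, so that Rspo3 took the place of Sp5. Single samples also decided which genes passed the fold change of -0.6. Without the second 1 µM sample Sp5 (-0.57), Lef1 (-0.55) and Rspo3 (-0.52) all fell short of it, whereas without the first, Sp5 (-0.79) and Rspo3 (-0.64) passed. Without the second DMSO sample, Sp5 (-0.72), Dkk1 (-0.72) and Lef1 (-0.62) passed. Dkk1 also passed without the second 1 µM sample (-0.69), but fell short without the first DMSO sample (-0.53) or the first 1 µM sample (-0.59).

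A wider list of 136 genes of the pathway, other than the 10, was examined by role, and 127 of them passed the filter on low counts. At 25 nM RA 23 were higher and 21 lower, and at 1 µM RA 25 were higher and 41 lower. These are 34.6% and 52.0% of the 127, beside 8.05% and 19.7% of all genes tested. The median log2 fold change of the 127 genes was -0.03 and -0.05 at the 2 doses, beside -0.18 and -0.39 for the 10 genes. Without the first DMSO sample 15 were higher at 25 nM RA, and without the second 16 were higher at 1 µM RA. Between the doses, 2 were higher and 11 lower at 1 µM RA, and those lower were 3 and 7 without the first or second 25 nM sample and 6 and 7 without the first or second 1 µM sample. The 9 genes left out by the filter (Wnt1, Wnt8b, Wnt10b, Lgr6, Dkk4, Wif1, Rspo2, Rspo4 and Cdx4) had at most 20 estimated counts in any sample.

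Among the ligands and the genes of their secretion, 7 of 18 rose and 1 fell at 25 nM, and 5 rose and 1 fell at 1 µM RA. Wnt8a, a ligand of the canonical pathway, rose from an RPKM of 21.4 ± 0.568 (SD, n = 2) in DMSO to 50.003 ± 0.394 at 25 nM and 51.5 ± 2.05 at 1 µM RA, or by 1.22 and 1.26 on the log2 scale (adjusted p = 1.8e-99 and 1.1e-106, edgeR). The study names Wnt8a among genes that earlier work found to be repressed by RA in the NMP niche of embryos, which is the opposite direction. The reason for this difference was not tested. Porcn, the enzyme that adds the lipid to Wnt proteins, rose by 0.48 and 0.69 on the log2 scale. Wnt3, another canonical ligand, fell by 0.37 and 0.40. Wnt16 rose by 1.01 and 1.34 and Wnt7b by 0.54 and 0.58, both from an RPKM below 0.6 in DMSO.

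Among the receptors and co-receptors, 1 of 17 rose and 3 fell at 25 nM, and 2 rose and 7 fell at 1 µM RA. The Frizzled receptor genes Fzd10 and Fzd1 fell at both doses, with log2 fold changes of -0.20 and -0.25 at 25 nM and of -0.36 and -0.34 at 1 µM RA. Fzd5 was called only at 1 µM RA (-0.27), as was the co-receptor gene Lrp5 (-0.21), with values of -0.18 and -0.03 at 25 nM RA. Fzd8 also fell at both doses (-0.36 and -0.26), and Fzd2 (-0.24) and Fzd9 (-0.58) were called lower at 1 µM RA. Fzd7, with the highest RPKM of the Frizzled genes in DMSO (20.9), rose at 1 µM RA (0.17). Ror2, a receptor of noncanonical Wnt signaling, rose by 0.43 and 0.28 on the log2 scale.

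Among the secreted and membrane modulators, 2 of 23 rose and 4 fell at 25 nM, and 3 rose and 6 fell at 1 µM RA. Cer1, a secreted antagonist of Nodal, BMP and Wnt ligands, fell by 0.52 and 0.40 on the log2 scale. Apcdd1, a membrane inhibitor, fell by 0.27 and 0.41, and Gpc4, a glypican, fell by 0.35 and 0.53. Sost, a secreted antagonist of LRP5 and LRP6, rose by 1.61 and 2.03 but from an RPKM of 0.118 to no more than 0.471. Shisa3, an inhibitor of receptor maturation, rose by 0.84 and 0.97 and likewise stayed below an RPKM of 0.4.

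In the cytoplasm, 3 of 27 genes rose and 2 fell at 25 nM, and 4 rose and 7 fell at 1 µM RA. Dact1, which encodes a Dishevelled-binding protein, rose by 0.59 and 0.96 on the log2 scale and also differed between the doses (0.36 ± 0.072, SE, adjusted p = 1.5e-04, edgeR). Its relative Dact2 rose by 0.86 and 1.01, and Dixdc1, a DIX-domain protein of the pathway, rose by 0.56 and 0.72. Gsk3b, 1 of the genes of GSK3, fell by 0.23 and 0.38. Gsk3a, with a higher RPKM in DMSO (17.3 against 8.82), was not called at either dose (-0.006 and -0.03). Tnks, a tankyrase that marks Axin for degradation, fell by 0.22 and 0.29.

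Of the nuclear factors of beta-catenin, 4 of 19 rose and 3 fell at 25 nM, and 5 rose and 11 fell at 1 µM RA. Crebbp, a histone acetyltransferase and coactivator, fell by 0.21 and 0.55 on the log2 scale. Its relative Ep300 was called only at 1 µM RA (-0.44), and its value at 25 nM RA was -0.16. Bcl9, a coactivator that binds beta-catenin, was likewise called only at 1 µM RA (-0.57), with -0.11 at 25 nM RA. The corepressor gene Tle4 fell by 0.25 and 0.39, and Hic1, a transcriptional repressor, rose by 1.85 and 2.02 from an RPKM of 0.0781 to no more than 0.316. Between the doses, 6 of the 19 were lower, among them Crebbp (-0.34), Ep300 (-0.28) and Bcl9 (-0.45).

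Among other genes known to respond to Wnt signaling, 6 of 23 rose and 8 fell at 25 nM, and 6 rose and 9 fell at 1 µM RA. The caudal homeobox gene Cdx1, which is also known to respond to RA, rose from an RPKM of 6.36 ± 0.468 (SD, n = 2) to 21.8 ± 2.70 at 25 nM and 24.4 ± 1.75 at 1 µM RA. Nkx1-2, a homeobox gene of the caudal progenitors, rose by 1.02 and 0.98 on the log2 scale, and Mycn rose by 0.42 and 0.60. Msgn1, a factor of presomitic mesoderm, fell by 0.50 and 0.90, and the Notch ligand gene Jag1 fell by 0.43 and 0.56. Genes of this list thus moved in both directions.

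**Figure D4:**
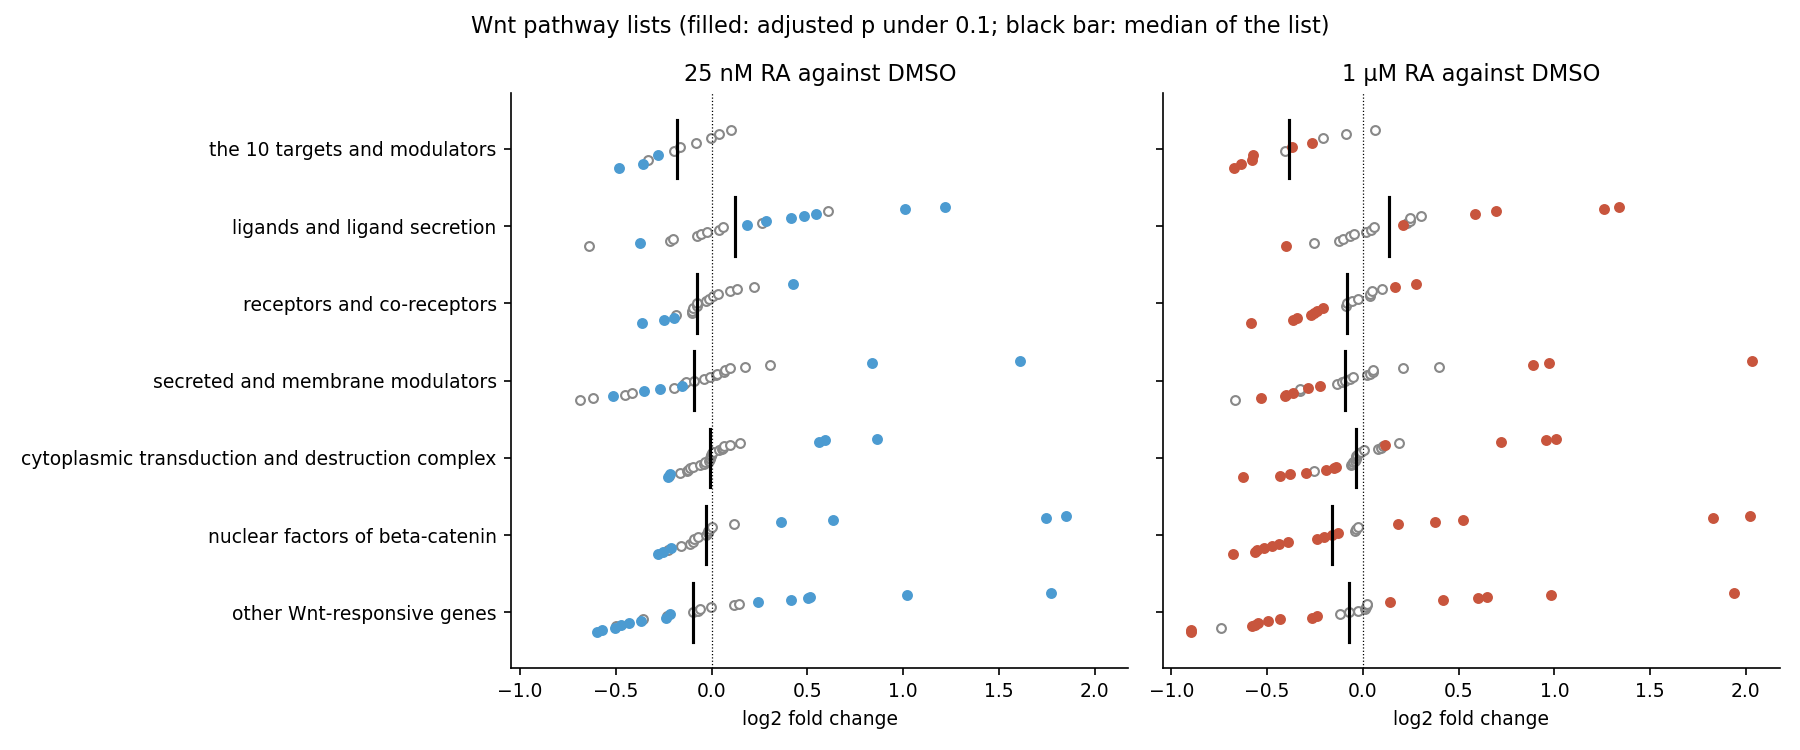
Log2 fold changes (horizontal axes) of the 10 genes and of each list of pathway genes at 25 nM RA and 1 µM RA against DMSO. Each point is a gene, filled where its adjusted p was under 0.1, and black bars are medians, which for the 10 genes were -0.18 and -0.39.

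Markers of other cell types were examined in the same samples. The summed RPKM of 4 markers of presomitic mesoderm (Tbx6, Msgn1, Hes7 and Meox1) was 37.6 in both DMSO samples, 26.4 to 28.7 at 25 nM and 21.1 to 23.0 at 1 µM RA. Of these, 3 fell and Meox1 rose at 1 µM RA. Tbx6 and Msgn1 fell and Meox1 rose at 25 nM RA, where Hes7 did not pass the test (-0.56 on the log2 scale, adjusted p = 0.13). The sum of 5 endoderm markers (Sox17, Foxa2, Gata4, Gata6 and Cer1) was 52.3 to 53.3 in DMSO, 40.5 to 40.8 at 25 nM and 39.1 to 41.0 at 1 µM RA, and 4 of the 5 fell at each dose. The sum of 7 fibroblast markers, for the feeder cells, was 5.94 to 6.27 in DMSO, 5.82 to 6.02 at 25 nM and 5.26 to 5.43 at 1 µM RA. At 1 µM RA 3 of the 6 that could be tested fell. The sum of 4 neural markers lay between 5.11 and 5.67 in all samples. Irx3 made up most of it, with a mean RPKM of 4.89 to 5.13, and Sox1, Pax6 and Neurog2 had means of at most 0.237. The sum of 6 markers of pluripotent cells lay between 459 and 496. Pou5f1 made up most of this sum, with a mean RPKM of 445 to 457. Tbx3 was called higher at both doses, from an RPKM of 0.121 in DMSO to 0.364 and 0.425. No marker of these lists was at 0 in all samples, and Tbx6, Msgn1 and Cer1 also belong to the pathway lists. The sums of mesoderm and endoderm markers were thus lower than in DMSO at both doses, as were Rspo3, Lef1 and Sp5. At 1 µM RA the sum of fibroblast markers was lower as well, and so were all 6 genes called at this dose. Axin2, Dkk1 and Sp8 were not called at 25 nM RA, but both 25 nM samples of each lay below both DMSO samples. The part of these cells in the changes of the 10 genes was not tested. In such bulk samples, fewer cells of a type and less RNA per cell cannot be told apart.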

How the data were processed

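NMPs were treated for 2 h with DMSO, 25 nM RA or 1 µM RA, with 2 samples per condition, grouped by the sample labels. The authors sequenced rRNA-depleted total RNA with a stranded kit as 50 bp single-end reads. Per the submitters' processing notes, FastQC 0.11, TopHat2 2.0.13, Bowtie2 2.2.5.0 and Partek 6.6 were used with mm10. Whether counting used the strand is not given in the sources used here, so reads of antisense or overlapping genes cannot be told apart.

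The authors deposited estimated counts for each RefSeq transcript, made by expectation-maximization and not normalized, and 50.4% to 51.1% of the values in a sample are not whole. The deposited RPKM values are scaled for the length of each transcript and the depth of each sample. Both were summed per gene here, which adds transcript RPKM values of differing length.

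Rounded sums were tested in edgeR 4.0.16 (R 4.3.3) with TMM factors, the filterByExpr filter and the likelihood ratio test that the methods name, in a fit of all 6 samples. The Benjamini-Hochberg adjustment covered 15143 genes, and an adjusted p under 0.1 was called. Standard errors and 95% intervals are from the Fisher information of the fit. Between 31753556 and 42029348 estimated counts per sample set the precision. With 2 samples per condition, exact permutation of samples cannot reach a small p and was not used.

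The 10 genes and the lists were chosen with earlier results of these data known, and a gene of the RA-response list is not reported here. From each list, at most 5 genes called at either dose were named, those with the smallest adjusted p over both. Gsk3a, which was not called, was named beside Gsk3b. In addition, Fzd2, Fzd7, Fzd8 and Fzd9 were named to complete the Frizzled genes called, and Tcf7l1 and Tcf7l2 were named beside Lef1 and Tcf7. The alternatives tried were DESeq2 1.42.0, its size factors in edgeR, edgeR's quasi-likelihood test, total counts, other filters, only the 4 samples compared, a replicate block, an adjusted p of 0.05, transcripts in place of sums, no RPKM threshold and leaving out each sample. Offsets for GC content and transcript length (loess, span 0.4) were chosen after the data were seen. Scripts were tested on simulated data. Deposited starts are 1-based and stops lie 1 past the last base, as in 4393 of 5212 genes with a single transcript matched to RefSeq, and printed ends are corrected for this. Python 3.11.15 was used for tables (pandas 2.3.3, numpy 2.4.6, scipy 1.17.1) and plots (matplotlib 3.10.9).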

Additional observations from a re-analysis of the deposited data

Results flagged for a closer look

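The effect of RA differed between the doses, by the direct test of 1 µM RA against 25 nM RA (edgeR, adjusted p under 0.1), for 5 of the 10 genes. The log2 differences were -0.18 for Axin2, -0.30 for Lef1, -0.32 for Sp5, -0.21 for Sp8 and -0.44 for Dkk1, and in each the 2 samples with 1 µM RA were below both samples with 25 nM RA. Of these, Lef1 alone was called in each fit that left out a single sample, and Lef1 and Dkk1 were called with an offset for GC content. With an offset for transcript length, Sp8 was not called and the others were. Groups of 2 samples are too small to test for outlying samples.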

How the results depend on the processing

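The 6 genes called at 1 µM RA against DMSO were called under every alternative tried, and the 3 called at 25 nM RA were called under all but 2, namely Lef1 as its most abundant transcript and Sp5 without the second 25 nM sample. Over all refitted log2 fold changes of the 10 genes, 495 kept direction and side of the threshold, 29 lost it, 6 gained it and 10 changed sign, all of the last in Nkd1 and Notum. Nkd1 at 25 nM RA (-9.2e-05) was 5.1e-04 in DESeq2, 0.0022 with only the 4 samples compared, 0.058 as a transcript, 0.017 with the length offset, and from -0.073 to 0.089 with a sample left out. At 1 µM RA (-0.09) it was 0.0092 as a transcript and from -0.16 to 0.0029 with a sample left out. Notum at 25 nM RA (0.04) ran from -0.061 to 0.15. At 25 nM RA, Axin2 ran from -0.11 to -0.05 and Sp8 from -0.22 to -0.10, and Notum at 1 µM RA ran from -0.38 to -0.05.

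With a sample left out, the number of the 10 genes called lower ran from 2 to 4 at 25 nM RA (3 with all samples), from 6 to 7 at 1 µM RA (6) and from 1 to 4 between the doses (5). The last was 2 in DESeq2, 1 as transcripts and 2 with the GC offset. Pathway genes called higher at 25 nM RA (23) were 14 in DESeq2, 9 as transcripts and 15 to 24 with a sample left out, and those called lower (21) were 13, 12 and 14 to 23. At 1 µM RA, those higher (25) were 14 in DESeq2 and 16 to 24 with a sample left out, and those lower (41) were 26 as transcripts and 32 to 43 with a sample left out. Between the doses, those higher (2) were 4 with the GC offset and 1 to 2 with a sample left out, and those lower (11) were 7 by the quasi-likelihood test, 4 in DESeq2, 3 as transcripts, 7 at an adjusted p of 0.05 and 3 to 10 with a sample left out. Without the RPKM threshold, 2 of the 10 genes (Sp5 and Dkk1) in place of 1 met the thresholds of the study at 1 µM RA. The causes of these differences in counts were not tested.

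Over all genes, calls at 25 nM RA (1219) were 548 in DESeq2 and 799 and 800 without the second 25 nM or DMSO sample. At 1 µM RA (2983) they were 1549 in DESeq2 and 1960 and 1922 without the first or second DMSO sample. Between the doses (516) they were 336 by the quasi-likelihood test, 154 in DESeq2, 340 at an adjusted p of 0.05, and 205 and 247 without the first or second 25 nM sample. Deviations of equally numbered samples correlated at -0.062 to 0.048 over all genes, and the replicate number was not taken as a pairing. Such a correlation does not decide this for single genes. Of the 10 genes, only Sp5 and Sp8 had the same replicate, the first, higher in RPKM in all 3 conditions. With the replicate number as a block, 3, 6 and 5 of the 10 genes were called in the 3 comparisons and 1138, 2756 and 423 of all genes. The depth limits Lgr5, with at most 88 estimated counts in a sample.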
